A study of Mus musculus with 8 samples.

Results

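A beta-only T cell is here a cell barcode with exactly 1 productive T cell receptor beta (TRB) contig and 0 alpha (TRA) contigs. Of 6686 barcodes with a receptor chain, 1198 met this rule, and 5025 paired cells had 1 TRB and 1 or 2 TRA. They came from brain parenchyma of C57BL/6 mice of 2 genotypes, where cells positive for CD45, a marker of immune cells, had been sorted. One genotype was 5xFAD;Cxcr6-/-, which carries the 5xFAD transgenes and lacks the chemokine receptor CXCR6 throughout the body, and its libraries are also called knockout libraries. Its control was 5xFAD, which carries the same transgenes with Cxcr6 intact. In 5xFAD mice a neuronal Thy1 promoter drives human amyloid precursor protein and presenilin 1 with familial Alzheimer's disease mutations. Each genotype had 2 receptor libraries, and mice without the transgenes were not analysed here. The labels give neither age nor whether a library came from 1 mouse or a pool, so a p-value here speaks of the spread between libraries alone, which may be technical.

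A T cell receptor pairs 1 beta with 1 alpha chain, each assembled in the thymus from V, (D) and J segments. The beta chain is rearranged first, and the rearranged chain is tested on the cell surface with a surrogate alpha chain before the alpha locus recombines. The joint region CDR3 (complementarity-determining region 3) runs from V to J, and its untemplated bases mark a clone, since the daughters of a T cell inherit the same joint. A mature alpha-beta T cell in brain tissue has both chains, and receptor sequencing from droplets does not always read both.

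The deposited chains were all TRA or TRB, and 1193 of the 1198 members had an assigned TRBC1 or TRBC2 constant segment. TRBJ and TRBC came from the same cluster in each of these 1193 cells. The T cell label could be checked no further, since expression was not analysed here. The knockout libraries held 765 and 1330 barcodes with 13460 and 22340 UMIs (unique molecular identifiers, each counting 1 captured RNA molecule). The 5xFAD libraries held 2069 and 2522 barcodes with 32169 and 34772 UMIs. Reads per UMI ran from 1069 to 2144 over the 4 libraries. Barcodes with 2 TRB, which can be doublets, fell outside both classes and numbered 61 and 55 in knockout and 82 and 88 in 5xFAD libraries. Over all pairs of libraries, 28 barcode sequences were shared, and no TRB nucleotide sequence was shared between beta-only cells of any pair of libraries.

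The joints of 9 TRBs show what a beta-only cell was matched on. They are the 2 TRBs with most beta-only cells in each library, where ties went to the TRB with more paired cells, and TRBV16 to TRBJ1-1 because 19 of its 20 cells were beta-only. In each knockout library the TRB in second place was tied with a TRB that had 0 paired cells and is not shown. The joints are given 5′ to 3′ from the deposited CDR3 nucleotides. Capitals mark the bases outside the longest exact germline V start and J end, which hold D bases, added bases or both.
Knockout library 1, TRBV13-3 to TRBJ1-4: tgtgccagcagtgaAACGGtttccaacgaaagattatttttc
Knockout library 1, TRBV17 to TRBJ2-7: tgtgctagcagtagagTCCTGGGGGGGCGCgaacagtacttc
Knockout library 2, TRBV10 to TRBJ2-7, 8 beta-only cells: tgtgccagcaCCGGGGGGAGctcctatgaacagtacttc
Knockout library 2, TRBV10 to TRBJ2-7, 5 beta-only cells: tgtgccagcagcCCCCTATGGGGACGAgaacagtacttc
5xFAD library 1, TRBV16 to TRBJ2-1: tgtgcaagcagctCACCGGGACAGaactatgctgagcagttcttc
5xFAD library 1, TRBV17 to TRBJ2-1: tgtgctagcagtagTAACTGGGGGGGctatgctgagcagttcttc
5xFAD library 2, TRBV12-2 to TRBJ1-1: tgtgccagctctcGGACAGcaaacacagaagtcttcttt
5xFAD library 2, TRBV16 to TRBJ2-4: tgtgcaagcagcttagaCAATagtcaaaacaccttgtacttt
5xFAD library 1, TRBV16 to TRBJ1-1: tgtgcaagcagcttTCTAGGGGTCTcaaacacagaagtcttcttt
The joints differed in length, with 4 to 15 bases in capitals, and the TRBV16 joint of TRBJ2-4 held only 4.

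Beta-only cells were a smaller share of cells in the knockout libraries. They numbered 117 of 684 and 203 of 1249 cells with 1 TRB in the 5xFAD;Cxcr6-/- libraries, against 413 of 1940 and 465 of 2350 in the 5xFAD libraries. That is 17.1% (95% Clopper-Pearson interval 14.4 to 20.1) and 16.3% (14.2 to 18.4) in knockout, and 21.3% (19.5 to 23.2) and 19.8% (18.2 to 21.5) in 5xFAD libraries. Both knockout libraries lay below both 5xFAD libraries.

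The mean was 16.7% ± 0.603 in 5xFAD;Cxcr6-/- and 20.5% ± 1.06 in 5xFAD (SD, n = 2 each). The difference of -3.86 percentage points exceeded the spread between replicates, with an exact two-sided permutation p of 0.333, the smallest that 2 against 2 libraries can give. It was -4.01 points without the TRB of most cells in each library and -2.51 points when distinct TRBs were counted in place of cells. All intervals here cover counting error only. The libraries with the smaller share had fewer cells and more reads per UMI (2144 and 1439 in knockout, 1223 and 1069 in 5xFAD), and the part of that depth in the difference was not tested. Cells with a TRA and no TRB numbered 20 and 26 in knockout and 47 and 84 in 5xFAD libraries, so that beta-only cells were 5.54 to 8.79 times as many.

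**Figure D1:**
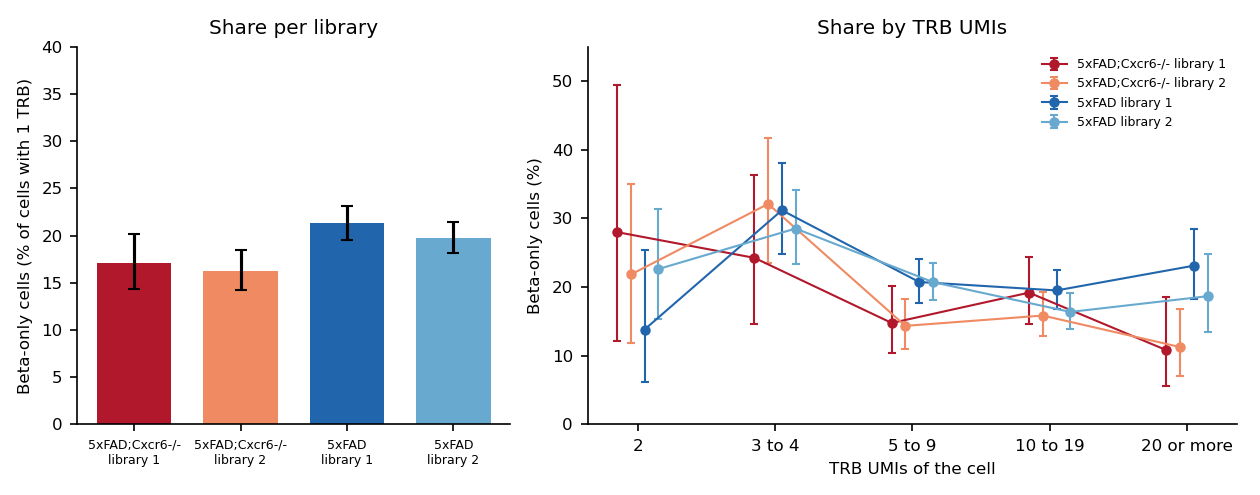
Share of cells with 1 TRB that were beta-only, per library (left, bars) and by the number of TRB UMIs of the cell (right, points joined per library), with 95% Clopper-Pearson intervals. The 5xFAD;Cxcr6-/- libraries stand at 17.1% and 16.3% and the 5xFAD libraries at 21.3% and 19.8%, and at 3 to 4 UMIs the shares of all 4 libraries lie between 24.2% and 32.1%.

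Beta-only cells averaged slightly fewer TRB molecules than paired cells, and the lower quartile of beta-only cells was 5 or 6 UMIs in every library. In 5xFAD;Cxcr6-/- libraries they averaged 10.5 ± 5.92 and 10.7 ± 7.23 TRB UMIs (SD over 117 and 203 cells), against 12.3 ± 9.33 and 12.2 ± 8.33 in paired cells. The 5xFAD means were 11.5 ± 7.58 and 9.14 ± 6.02 in beta-only cells and 11.8 ± 7.99 and 10.1 ± 7.31 in paired cells. Beta-only cells were lower in 4 of 4 libraries, while the spread over cells within a library was several times the difference. The mean log2 ratio was -0.15, a fold of 0.900, with an exact two-sided sign-flip permutation p of 0.125, the smallest that 4 libraries can give. Medians were 10, 10, 10 and 8 UMIs in beta-only cells and 10, 10, 10 and 9 in paired cells, so the median cell differed in 1 library only. The log2 ratio averaged -0.21 ± 0.041 in knockout and -0.095 ± 0.074 in 5xFAD libraries (SD, n = 2 each), a difference of -0.11 (exact permutation p = 0.333) that was 0.085 with medians.

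No beta-only cell had a single TRB UMI, whereas 72 paired cells did. The lowest count of a beta-only cell was 2 in every library. Paired cells with 1 TRB UMI numbered 8 and 12 in knockout and 17 and 35 in 5xFAD libraries, so such cells were present in the tables only with a TRA. The share of beta-only cells was highest, in 3 of 4 libraries, among cells with 3 to 4 TRB UMIs. It was 24.2% and 32.1% there in 5xFAD;Cxcr6-/- libraries and 31.2% and 28.5% in 5xFAD libraries.

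At 20 or more TRB UMIs, beta-only cells were still 10.8% (95% Clopper-Pearson interval 5.51 to 18.5) and 11.2% (7.0 to 16.8) of cells in knockout libraries. In 5xFAD they were 23.1% (18.3 to 28.5) and 18.7% (13.4 to 24.9). Cells rich in TRB therefore included members in all 4 libraries, and both knockout values were below both 5xFAD values. Both were also below at 5 to 9 UMIs (14.7% and 14.3% in knockout, 20.7% and 20.7% in 5xFAD). The genotypes overlapped at 2 UMIs (28.0% and 21.8% in knockout, 13.8% and 22.6% in 5xFAD). So did they at 3 to 4 UMIs (24.2% and 32.1% in knockout, 31.2% and 28.5% in 5xFAD). They overlapped also at 10 to 19 UMIs, with 19.2% and 15.8% in knockout and 19.5% and 16.4% in 5xFAD.

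Each TRB molecule of a beta-only cell was read about as deeply as one of a paired cell. Reads per TRB UMI were 2509 and 1542 in beta-only cells of the knockout libraries, against 2286 and 1511 in their paired cells. They were 1255 and 1079 in beta-only cells of the 5xFAD libraries, against 1302 and 1102. The mean log2 ratio was 0.020 (exact two-sided sign-flip permutation p = 0.875) and became -0.018 without 5xFAD;Cxcr6-/- library 1. The alpha chain of paired cells had fewer molecules than the beta chain. TRA contigs averaged 4.99 and 5.03 UMIs in knockout and 4.17 and 4.26 in 5xFAD libraries. Contigs with a single UMI made up 8.39% and 9.28% of TRA contigs in knockout and 10.9% and 11.4% in 5xFAD libraries. Among the TRB contigs of the same cells that share was 1.41% and 1.15% in knockout and 1.11% and 1.86% in 5xFAD libraries. The TRA share had the genotype order of the beta-only share, and its part in that share was not tested.

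Many beta-only cells carried the TRB of a paired cell in their own library, which names an alpha chain that they may share. That a shared TRB means a shared clone was not tested. A match required the same V segment, J segment and CDR3 nucleotides. Such cells numbered 31 of 117 and 47 of 203 in 5xFAD;Cxcr6-/- libraries, and 187 of 413 and 210 of 465 in 5xFAD libraries. That is 26.5% (95% Clopper-Pearson interval 18.8 to 35.5) and 23.2% (17.5 to 29.6) in knockout. In 5xFAD it is 45.3% (40.4 to 50.2) and 45.2% (40.6 to 49.8). All paired cells of a TRB had the same TRA set for 28 of 31 and 46 of 47 matched members in knockout and for 186 of 187 and 174 of 210 in 5xFAD libraries. A TRB with 1 paired cell is counted here by construction. That holds for the 19 members with TRBV16 to TRBJ1-1 in 5xFAD library 1, and such members were not counted apart.

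The other members had no paired cell of the same TRB to name a TRA. Their TRB was found in no other cell for 64.1% and 69.5% of members in knockout and 48.7% and 45.8% in 5xFAD libraries. It was found in other beta-only cells alone for 9.40% and 6.40% in knockout and 5.81% and 8.60% in 5xFAD libraries. The largest such set had 4 and 5 cells in knockout and 3 and 7 in 5xFAD libraries. In knockout library 1 it joined TRBV12-2 to TRBJ1-1 and in knockout library 2 TRBV13-3 to TRBJ2-3. Only 0 and 2 members in knockout and 1 and 2 in 5xFAD libraries matched a barcode with 2 TRB and no paired cell, where 0 of 117 allows a share of up to 2.56%.

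**Figure D2:**
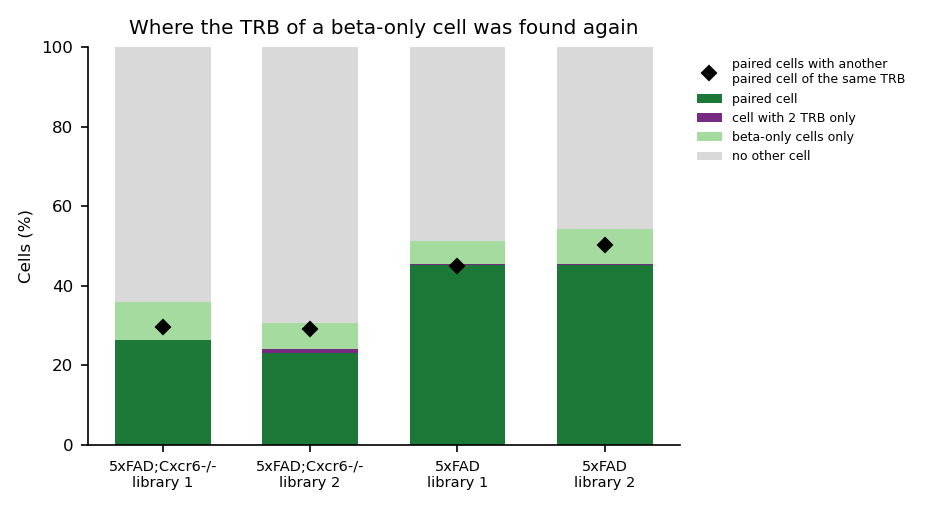
Share of beta-only cells (stacked bars, % of beta-only cells of each library) whose TRB was also in a paired cell, in a cell with 2 TRB only, in other beta-only cells only, or in no other cell, with diamonds for the share of paired cells whose TRB was in another paired cell. The paired-cell match is 26.5% and 23.2% in 5xFAD;Cxcr6-/- libraries and 45.3% and 45.2% in 5xFAD libraries, and the diamonds stand at 29.6% and 29.2% and at 45.0% and 50.1%.

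The same match was counted for paired cells. Of these, 29.6% and 29.2% shared their TRB with another paired cell in knockout libraries, and 45.0% and 50.1% did in 5xFAD libraries. Beta-only minus paired was -3.13 and -6.01 percentage points in knockout and 0.29 and -4.97 in 5xFAD libraries. The mean of -3.46 points was negative in 3 of 4 libraries (exact two-sided sign-flip permutation p = 0.25). It was -6.52 points when iNKT-like cells, defined further on, were left out of the paired cells, a removal possible on that side only.

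A match is more likely when more paired cells were read, so each library's paired cells were also thinned, by expectation, to the 567 of the smallest library. The matched share of beta-only cells was then 26.5% and 18.7% in 5xFAD;Cxcr6-/- and 37.9% and 34.7% in 5xFAD libraries. The mean was 22.6% ± 5.50 in knockout and 36.3% ± 2.27 in 5xFAD (SD, n = 2 each), without overlap. The difference of -13.7 points (exact permutation p = 0.333) was -20.4 points without thinning and -9.85 points with the lone knockout library 1. Thinned paired cells stood at 29.6% and 23.5% in knockout and 37.5% and 37.1% in 5xFAD libraries, in the same order of genotypes. The gap between beta-only and paired cells, unthinned, averaged -4.57 ± 2.03 points in knockout and -2.34 ± 3.72 in 5xFAD libraries (SD, n = 2 each), a difference of -2.23 that is within the 5xFAD spread and was not tested.

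The clonotypes of the deposited tables placed fewer members with an alpha chain than this match did in 3 of 4 libraries, and 1 more in knockout library 2. A clonotype that holds a TRA was given to 17 and 48 members in knockout and 121 and 131 in 5xFAD libraries. Of the members matched to a paired cell, 14 of 31 and 1 of 47 in knockout and 67 of 187 and 81 of 210 in 5xFAD libraries were in a clonotype without a TRA. Among the members without that match, 0 and 2 in knockout and 1 and 2 in 5xFAD libraries were in a clonotype with a TRA.

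Between cells of the same TRB, the beta-only ones again had fewer TRB UMIs. Matched members averaged 9.23 and 7.32 UMIs in knockout libraries, against 12.04 and 9.31 in paired cells of the same TRBs, each TRB weighted by its beta-only cells. In 5xFAD libraries they averaged 13.7 and 8.94, against 16.0 and 9.85. The log2 ratios were -0.38 and -0.35 in knockout and -0.23 and -0.14 in 5xFAD libraries. Their mean of -0.27, a fold of 0.827, was negative in 4 of 4 libraries (exact two-sided sign-flip permutation p = 0.125). By TRB, beta-only cells were lower for 13 of 16 and 17 of 30 TRBs in knockout and for 25 of 49 and 51 of 87 in 5xFAD libraries. This comparison was chosen after the data were seen.

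**Figure D3:**
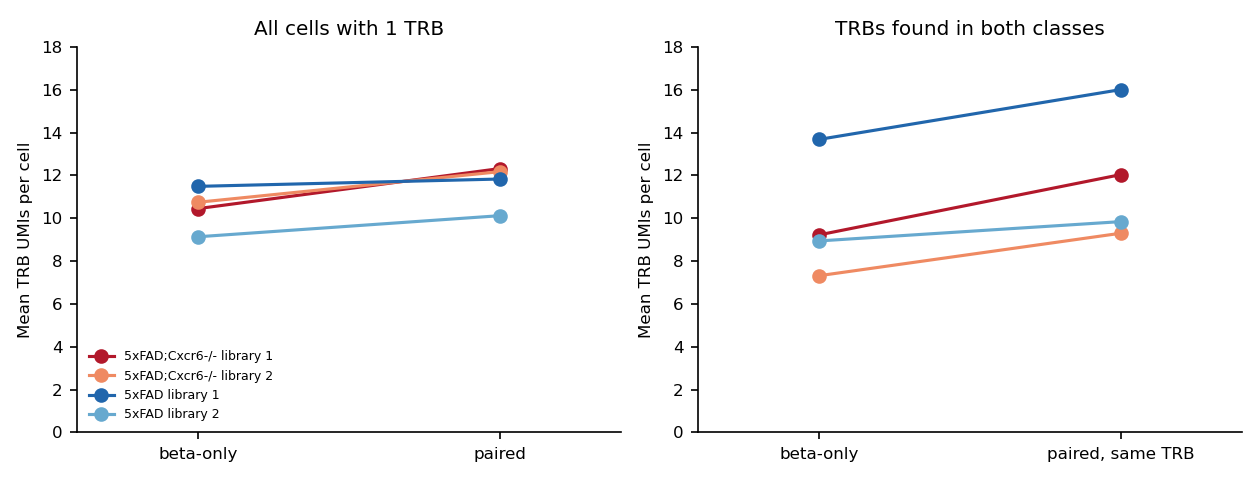
Mean TRB UMIs per cell in beta-only and paired cells of each library, for all cells with 1 TRB (left) and for TRBs found in both classes (right, each TRB weighted by its beta-only cells), with lines joining the classes of a library. Every line rises towards the paired cells, with log2 ratios of beta-only over paired from -0.24 to -0.042 on the left and from -0.38 to -0.14 on the right.

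The share of beta-only cells differed widely between TRBs with many cells in the same library. Of 52 TRBs with at least 10 cells, 3 and 6 were in knockout and 20 and 23 in 5xFAD libraries. Their beta-only share ran from 0 to 95% with a median of 10.0%, and 10 TRBs had 0 beta-only cells. That median counts each TRB once, whereas by cells the 52 TRBs held 302 beta-only cells of 1294. Of the cells with these TRBs, 34.1% and 13.7% in knockout and 25.6% and 22.2% in 5xFAD libraries were beta-only. Those shares were above the share of all cells in every library except knockout library 2. The 95% Clopper-Pearson interval lay wholly above the library's share for 8 TRBs and wholly below it for 1. A TRB with few cells could not lie wholly below, so these 2 counts cannot be set against each other. The interval of 0 of 10 cells reached 30.8%. That of 0 of 16 cells in 5xFAD library 2 reached 20.6%, above the library's 19.8%. TRBs seen in 1 cell were beta-only in 16.0% and 16.2% of cases in knockout and 19.8% and 19.2% in 5xFAD libraries, close to the share of all cells.

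The dominant TRB of 5xFAD library 1, TRBV16 to TRBJ2-1, had 65 beta-only and 189 paired cells, 25.6% (95% Clopper-Pearson interval 20.3 to 31.4). Its 189 paired cells all carried TRAV9D-3 joined to TRAJ22, and the cells averaged 18.3 TRB UMIs when beta-only and 21.7 when paired. In the same library, TRBV17 to TRBJ2-1 had 20 beta-only and 9 paired cells, 69.0% (49.2 to 84.7). It was rich in both chains, with 20.1 TRB UMIs in beta-only and 25.4 in paired cells and 6.00 TRA UMIs per paired cell. TRBV16 to TRBJ1-1 had 19 beta-only cells and 1 paired cell, 95% (75.1 to 99.9). Its lone alpha, TRAV3-3 to TRAJ33, therefore rests on 1 barcode.

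The 3 TRBs with most beta-only cells in 5xFAD library 2 had shares of 24.7%, 25% and 40.5%. They were TRBV12-2 to TRBJ1-1 with 23 beta-only and 70 paired cells, TRBV16 to TRBJ2-4 with 19 and 57, and TRBV16 to TRBJ2-7 with 17 and 25. The last had more TRB UMIs in beta-only cells (14.2) than in paired cells (12.5), against the direction of the other TRBs named here. A TRB of the same library outside the naming rule, TRBV12-2+TRBV13-2 to TRBJ1-3, reached 68.2%, with 15 of 22 cells, and was picked after its value was seen.

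In knockout library 1, TRBV13-3 to TRBJ1-4 had 11 beta-only and 8 paired cells, 57.9% (95% Clopper-Pearson interval 33.5 to 79.7), with 9.64 TRB UMIs in beta-only and 11.25 in paired cells. Its alpha, TRAV16 to TRAJ44, had 1.88 UMIs per paired cell, the lowest of the 51 TRBs with at least 5 paired cells. TRBV17 to TRBJ2-7 of that library had 4 beta-only and 10 paired cells. In knockout library 2, a TRBV10 to TRBJ2-7 chain with 8 beta-only and 12 paired cells stood at 40%, and another with 5 and 26 at 16.1%. All 249 contigs that the tables label TRBV10 carry the V sequence that the GENCODE annotation names Trbv4, and 0 match the gene it names Trbv10.

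TRBs with few TRA UMIs per paired cell had more beta-only cells when the libraries were pooled. Over 51 TRBs with at least 10 cells and 5 paired cells, the share of beta-only cells and the TRA UMIs per paired cell had a Spearman rho of -0.50 and a Pearson r of -0.38. Within libraries, rho was -0.044 (r = -0.079) over 6 TRBs of knockout library 2, -0.34 (r = -0.069) over 19 of 5xFAD library 1 and -0.72 (r = -0.60) over 23 of 5xFAD library 2, so the order was clear in the last alone. These are descriptions, since TRBs of 1 library share its depth, and paired cells were counted only where a TRA had been read. The UMIs are also per cell and not per TRA chain. TRBs with 2 TRA in most paired cells had shares of 0% in knockout library 1, 0% in 5xFAD library 1 and 10% in 5xFAD library 2. They were not set apart, and their part in the order was not tested. With fewer than 4 TRA UMIs per paired cell, a value chosen after the data were seen, 20 TRBs had 201 beta-only cells of 721 (27.9%). With 4 or more, 31 TRBs had 82 of 553 (14.8%). Within 5xFAD library 1 the shares were 24.7% with fewer and 20.1% with more, and within 5xFAD library 2 they were 29.6% and 10.6%. Knockout library 1 had 1 TRB with fewer, at 57.9%, and knockout library 2 had 0. The TRBV17 to TRBJ2-1 chain of 5xFAD library 1, at 69.0% with 6.00 TRA UMIs, stood apart from that order, and was not alone. TRBV19 to TRBJ2-7 of the same library was at 58.8% with 4.86. A TRBV10 to TRBJ2-7 chain of knockout library 2 was at 40% with 5.42. The same share and the TRB UMIs had a rho of 0.13.

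**Figure D4:**
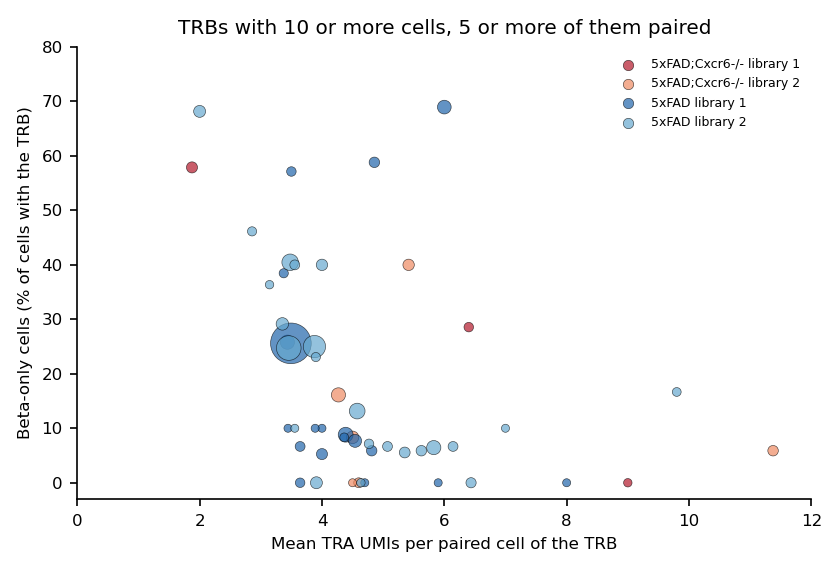
Each point is a TRB with at least 10 cells, 5 or more of them paired (51 TRBs), coloured by library with its area proportional to the number of cells: mean TRA UMIs per paired cell (horizontal) against the share of its cells that were beta-only (vertical, %). Shares above 50% appear at 1.88, 2, 3.50, 4.86 and 6.00 UMIs, and the TRB with 19 of 20 cells beta-only is not drawn because it has 1 paired cell.

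No V or J segment passed the test between beta-only and paired cells. Each distinct TRB was counted once per class and library, which gave 95 and 177 beta-only chains in knockout and 262 and 317 in 5xFAD libraries. A TRB found in both classes was counted in each. That held for 16 and 30 of these chains in knockout and 49 and 87 in 5xFAD libraries. The classes thus shared chains, and the part of that overlap in the differences between them was not tested. Of 34 segments tested with edgeR's quasi-likelihood test with the library as a block, 0 passed a Benjamini-Hochberg adjusted p of 0.05, which is 0% called, and 1 had an unadjusted p under 0.05. DESeq2 also called 0. That segment, TRBV2, was used by 1.94% ± 0.780 of beta-only and 3.29% ± 1.39 of paired chains (SD, n = 4) and was lower in 4 of 4 libraries, with a log2 fold change of -0.73 (SE 0.37) and an edgeR adjusted p of 0.917.

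The most used J segment was TRBJ2-7 (GRCm38, chromosome 6, 41543810 to 41543856), with 18.3% ± 2.56 of beta-only and 21.2% ± 0.995 of paired chains (SD, n = 4). TRBJ1-1 followed with 12.2% and 11.4%, and TRBJ2-5 with 11.98% and 11.2%. Among V segments the label TRBV12-2+TRBV13-2 led with 12.7% ± 4.0 of beta-only and 12.5% ± 2.52 of paired chains. All 728 of its contigs carry the V sequence of TRBV13-2 (chromosome 6, 41121396 to 41121832). TRBV13-1, TRBV13-3, TRBV3 and TRBV29 came next among beta-only chains, at 9.01%, 8.77%, 6.87% and 6.87%, against 6.69%, 6.64%, 7.62% and 5.96% of paired chains.

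TRBV13-1 was higher in beta-only than in paired chains in 4 of 4 libraries (log2 fold change 0.28, SE 0.18), as was TRBJ2-5 (0.098, SE 0.15). TRBV19 and TRBV5 were lower in 4 of 4 (-0.36, SE 0.20, and -0.40, SE 0.26). TRBV15 (0.40, SE 0.35) and TRBV29 (0.35, SE 0.20) were higher in 3 of 4. The adjusted p of each was 0.917 in edgeR's test, so none passed the test. Agreement in 4 of 4 libraries was not counted over all 34 segments tested, so it sets no segment apart.

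Between genotypes, beta-only chains also gave 0 calls among 32 segments tested (0% called, 2 at an unadjusted p under 0.05, 0 called by DESeq2). The 2, named after their values were seen, were TRBV14 and TRBV12-2+TRBV13-2. TRBV14 was used by 5.26% and 6.21% of beta-only chains in knockout and 1.91% and 2.84% in 5xFAD libraries, with a log2 fold change of 1.26 (SE 0.28) and an edgeR adjusted p of 0.476. TRBV12-2+TRBV13-2 was used by 8.42% and 10.7% in knockout and 17.6% and 14.2% in 5xFAD libraries (-0.66, SE 0.24, edgeR adjusted p = 0.476). Neither segment's genotypes overlapped, but other segments, TRBJ1-4 and TRBV17 among them, did not overlap either. Non-overlap was not counted over all 32 segments tested, so it sets neither segment apart. The class by genotype term gave 0 calls among 34 segments (0% called, 0 at an unadjusted p under 0.05, 0 called by DESeq2).

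The use of TRBV13-2, TRBV29 and TRBV1 was read against invariant natural killer T cells. In mice these T cells recognise lipids on CD1d with an invariant TRAV11 to TRAJ18 alpha chain and mostly use these beta segments. A beta-only cell has no alpha by which to be counted as one, so paired cells with that alpha, called iNKT-like, served as the measure. They were 4.06% and 1.82% of paired cells in knockout and 13.9% and 8.38% in 5xFAD libraries. They numbered 23 and 19 in knockout and 213 and 158 in 5xFAD libraries. Of beta-only cells matched to a paired cell, 0 and 0 in knockout and 3 and 7 in 5xFAD libraries had an iNKT-like match. The iNKT-like cells held 23 and 19 distinct TRBs in knockout and 191 and 146 in 5xFAD libraries. With nearly as many TRBs as cells, few matches could arise, so they cannot give the share of iNKT cells among beta-only cells. In every library 0 beta-only cells matched a paired cell with the MAIT chain TRAV1 to TRAJ33. Such paired cells numbered 0 and 0 in knockout and 2 and 6 in 5xFAD libraries, so knockout libraries could give no MAIT match and 5xFAD libraries few.

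Chains with 1 of the 3 segments made up 18.9% (95% Clopper-Pearson interval 11.6 to 28.3) and 26.6% (20.2 to 33.7) of beta-only chains in knockout libraries. In 5xFAD they were 35.9% (30.1 to 42.0) and 28.1% (23.2 to 33.4). Paired chains stood at 25.7% and 20% in knockout and 32.1% and 26.9% in 5xFAD libraries. Leaving iNKT-like cells out was possible for paired cells only, which by construction lowers the paired share and raises beta-only cells against it. Those paired shares were then 23.4% and 18.7% in knockout and 20.2% and 20.3% in 5xFAD libraries. In both 5xFAD libraries the beta-only interval lay above the paired share without iNKT-like cells, while in knockout libraries it did so in library 2 and not in library 1. iNKT-like chains themselves were at 69.6% and 73.7% in knockout and 80.1% and 71.2% in 5xFAD libraries.

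TRBV13-2, with both of its labels counted, was the most used of the 3 in all 4 libraries. It was used by 8.42% and 14.1% of beta-only chains in knockout and 20.2% and 16.4% in 5xFAD libraries. Paired chains that were not iNKT-like used it at 12.1% and 10.4% in knockout and 8.77% and 10.4% in 5xFAD libraries. The removal from the paired side alone builds in a higher use of TRBV13-2 by beta-only chains, so a test against these chains is no evidence of a difference between the classes. Against them, edgeR called 1 of 34 segments (2.94% called, 7 at an unadjusted p under 0.05), TRBV12-2+TRBV13-2, which was higher in beta-only chains by 0.72 on the log2 scale (SE 0.16), with an edgeR adjusted p of 0.000737. The call ended without 5xFAD library 1 (0.43, edgeR adjusted p = 0.646) and without 5xFAD library 2 (0.71, edgeR adjusted p = 0.0762). DESeq2 called 0 segments (1 at an unadjusted p under 0.05) and placed it at 0.65 (SE 0.30, DESeq2 adjusted p = 0.714). Against all paired chains its log2 fold change was 0.091 (SE 0.13), with an edgeR adjusted p of 0.917.

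**Figure D5:**
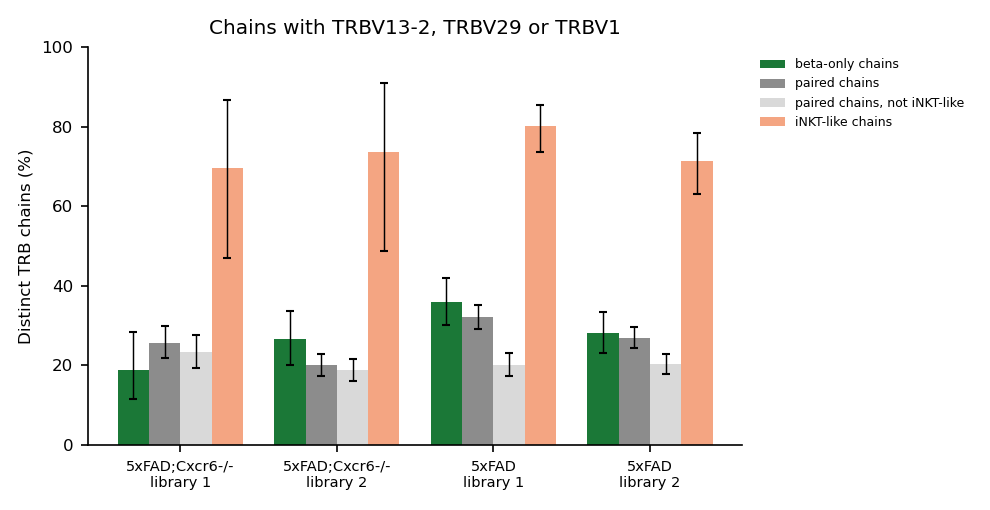
Share of distinct TRB chains that use TRBV13-2, TRBV29 or TRBV1 in each library (%), for beta-only chains, paired chains, paired chains that are not iNKT-like and iNKT-like chains, with 95% Clopper-Pearson intervals. Beta-only chains stand at 18.9% and 26.6% in 5xFAD;Cxcr6-/- libraries and at 35.9% and 28.1% in 5xFAD libraries, and iNKT-like chains stand between 69.6% and 80.1%.

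CDR3 lengths of beta-only and paired chains differed by at most 0.067 amino acids in any library. Beta-only chains averaged 13.8 and 13.9 amino acids in knockout and 14.1 and 13.9 in 5xFAD libraries, with an SD over chains of 1.41 to 1.47. Paired chains averaged 13.8 and 13.9 in knockout and 14.0 and 13.8 in 5xFAD libraries. Beta-only minus paired averaged 0.024 amino acids (exact two-sided sign-flip permutation p = 0.375). Chains found in both classes were counted in each here too. Knockout minus 5xFAD was -0.11 amino acids for beta-only chains (13.9 ± 0.0780 in knockout, 14.0 ± 0.166 in 5xFAD, SD, n = 2 each, exact permutation p = 0.667), less than the 5xFAD spread. The most common length was 14 amino acids, in 37.9% and 29.4% of beta-only chains of knockout and 30.5% and 30.9% of 5xFAD libraries, and lengths ran from 9 to 19.

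The bases of the CDR3 that germline V and J do not give, in capitals above, were counted too. They averaged 9.97 and 9.95 bases in beta-only chains of knockout and 10.05 and 9.93 of 5xFAD libraries. In paired chains they averaged 9.80 and 9.83 in knockout and 10.2 and 9.80 in 5xFAD libraries. The first J cluster, TRBJ1, was used by 47.4% and 33.3% of beta-only chains in knockout and 37.8% and 32.2% in 5xFAD libraries. Paired chains used it at 38.1% and 34.4% in knockout and 35.7% and 34.6% in 5xFAD libraries, so knockout library 1, with 95 beta-only chains, was the highest. Few beta-only chains occurred in another library. By nucleotides this held for 0 of 95 and 0 of 177 chains in knockout and 3 of 262 and 1 of 317 in 5xFAD libraries.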

How the data were processed

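T cell receptor contigs of 4 libraries were analysed. Another 4 samples hold gene expression and were not used here. Libraries were made with the 10x Chromium immune profiling v2 kit, per the labels' protocols. The submitters' processing notes name Cell Ranger 6.0 and mm10, and the receptor reference is not given in the sources used here. Per the file headers, the deposited tables give each contig its count of reads and of UMIs, without normalization. All 12792 contigs were productive, so cells or chains that the pipeline dropped were not used. A TRB was its V segment, J segment and CDR3 nucleotides.

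Libraries are the replicates, with exact permutation tests between genotypes and exact sign-flip permutation tests between classes. Segments with at least 10 distinct chains over the columns were tested with edgeR 4.0.16 (offset log of the chain total, no further scaling, R 4.3.3), with DESeq2 1.42.0 as an alternative. Chains, not mice, are counted, so edgeR p-values rest on a spread shared by segments. The 95% intervals are Clopper-Pearson, a count of 0 allows up to 3 counts of the total, and both cover counting error only. Germline V and J sequences and coordinates are from GENCODE vM21 (GRCm38, the build mm10 names), and the V name of each label was checked on the last 25 bases of framework 3.

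Named segments were those called, the 5 TRBV and 3 TRBJ most used by beta-only chains, the 3 of each direction with the smallest p between classes, and TRBV13-2, TRBV29 and TRBV1. Named TRBs were the 3 with most beta-only cells per library. The members, lists, tests and this rule were chosen with earlier results of these data known. Alternatives covered libraries left out, TRB UMI minimum, denominator, unit, paired cells used, match definition, tool, scaling, filter and a replicate block.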

Additional observations from a re-analysis of the deposited data

Results flagged for a closer look

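The reads per TRB UMI of beta-only over paired cells had opposite signs in the genotypes. The log2 ratio was 0.13 and 0.030 in the 5xFAD;Cxcr6-/- libraries and -0.053 and -0.030 in the 5xFAD libraries, a difference of 0.12 between the means (0.082 ± 0.074 and -0.042 ± 0.016, SD, n = 2 each). It was picked because both libraries of a genotype moved one way and both of the other the opposite way, and the difference was not tested. Whole-library reads per UMI were higher in knockout (2144 and 1439) than in 5xFAD libraries (1223 and 1069), and their part in it was not tested.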

How the results depend on the processing

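Of 78 alternative values of 9 results from exact tests, 74 kept the direction and 4 reversed. Reads per TRB UMI ran from -0.018 to 0.045 with a library left out (below 0 without 5xFAD;Cxcr6-/- library 1). CDR3 length between genotypes ran from -0.23 to 0.0045 (above 0 without 5xFAD library 1). The genotype difference in the UMI ratio was 0.085 with medians, and CDR3 length between classes was -0.023 with cells counted. The segment tests called 0 in each alternative save paired cells without iNKT-like cells, where 1 was called and the removal touched the paired side alone. That fit called 0 to 2 segments with a library left out, 0 with DESeq2 and 0 with cells. Among the 14 named segments, the ones tried here, those that changed sign with a library left out were TRBJ1-1 (-0.061 to 0.24), TRBV1 (-0.33 to 0.20), TRBV13-2 by its single label (-0.14 to 0.29, -0.080 without 5xFAD library 2) and TRBV13-3 (-0.029 to 0.39). TRBV1 was at 0.028 without iNKT-like cells and TRBV29 at -0.040 with cells. Where 1 library was left in a genotype, it was assumed to vary like the others. The cause of each change was not tested. Same-numbered libraries deviated with r = 0.012 over 32 segments. In both genotypes library 1 had more reads per UMI than library 2 (2144 against 1439 in knockout, 1223 against 1069 in 5xFAD). These values cannot tell whether the library numbers mark pairs. With the numbers as a replicate block, the genotype differences were -3.86 points (share), -0.11 (UMI ratio), -0.11 amino acids and -13.7 points (match). In that setting 0 segments were called. With 2 pairs the smallest p is 0.5. Cells below the pipeline's call and 1-UMI TRBs without a TRA limit what the shares can show.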
